A study of Mus musculus with 6 samples.

Results

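ER-associated degradation (ERAD) is the route by which misfolded proteins leave the endoplasmic reticulum (ER) and reach the proteasome. The report covers 10 genes of 22180 named on the array: the derlins Derl1, Derl2 and Derl3, the membrane protein Herpud1, the ligase Syvn1 with its adaptor Sel1l, the mannosidase-like proteins Edem1, Edem2 and Edem3, and the transcription factor Xbp1. They were taken by gene symbol, and where a gene had several probe sets the one with the highest mean log2 signal over the 6 arrays was used. All 10 were measured and no filter on low signals was applied.

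Livers came from 12-week-old male FAH5981SB mice on a C57Bl/6J background, whose Fah gene has a point mutation that leaves fumarylacetoacetate hydrolase, the last enzyme of tyrosine breakdown, truncated and unstable. NTBC (nitisinone) blocks an earlier enzyme of that pathway and prevents the build-up of toxic intermediates. Continuous mice (3 arrays) drank 8 mg/l NTBC until sampling, and withdrawal mice (3 arrays) went without the drug for the last 7 days. The mutation, water sweetened with 3% dextrose and a chow low in tyrosine and phenylalanine are common to all 6 arrays. Mice with an intact Fah were not analysed here, so each difference is between mutant livers with and without the drug. The replicates are labelled biological with no animal named, so the p-values measure only the spread between these samples. Liver RNA is a mixture, and fewer cells of a type cannot be told apart from less RNA per cell.

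In the ER membrane, SEL1L and the ubiquitin ligase SYVN1 (HRD1) form the core of the main retrotranslocation complex. Derlins take part in moving substrates through the membrane, HERPUD1 joins the complex as a short-lived organising subunit, and EDEM proteins trim mannose from N-glycans and so mark glycoproteins for disposal. The unfolded protein response (UPR) sets the capacity of this system: the sensor IRE1, encoded by Ern1, splices Xbp1 mRNA into the form that codes for an active factor, and ATF6 acts on ER stress elements of target promoters. Hepatocytes secrete most plasma proteins and depend on this machinery. The table holds 1 value per probe set, so spliced and unspliced Xbp1 mRNA were not told apart.

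After withdrawal 4 of the 10 genes differed, 2 higher and 2 lower. Derl1 and Edem3 rose 1.95-fold and 1.82-fold, while Derl3 and Herpud1 fell by 1.03 and 0.92 on the log2 scale. Sel1l, Syvn1, Derl2, Edem1, Edem2 and Xbp1 did not pass the test. Of the 10 genes, 4 had an adjusted p under 0.05 in limma, a linear model fitted to all 34472 probe sets with Benjamini-Hochberg adjustment over all of them. Over all probe sets 9.40% passed, 6.21% higher and 3.20% lower, beside 2 genes higher and 2 lower here. These shares include dim probe sets and those without a symbol, here and below. With the dim ones left out 3550 probe sets passed, beside 3241 of the full table, so the share of the brighter ones was higher. Of all calls 66.0% were higher, and 77.2% after median centring of the arrays. The 3 withdrawal signals lay wholly above or wholly below the 3 continuous ones for 7 of the 10 genes, and for 27.6% of all probe sets.

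Promoter sequences are shown for the 3 genes that hold a spelled-out UPR motif, 2 of which fell. The windows are from RefSeq (GRCm38.p6), read in the direction of the gene, and 9 of the 10 genes, all but Derl1, matched the table. The 250 bases before the gene start of Derl3 (chr10:75893148-75893397, plus strand), Herpud1 (chr8:94386179-94386428, plus strand) and Syvn1 (chr19:6046326-6046575, plus strand) are given with the motif match in capitals:
Derl3: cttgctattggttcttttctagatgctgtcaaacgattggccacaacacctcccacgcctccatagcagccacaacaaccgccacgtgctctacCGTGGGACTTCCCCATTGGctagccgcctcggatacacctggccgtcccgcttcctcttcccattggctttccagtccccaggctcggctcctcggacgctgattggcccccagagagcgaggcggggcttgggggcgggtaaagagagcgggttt
Herpud1: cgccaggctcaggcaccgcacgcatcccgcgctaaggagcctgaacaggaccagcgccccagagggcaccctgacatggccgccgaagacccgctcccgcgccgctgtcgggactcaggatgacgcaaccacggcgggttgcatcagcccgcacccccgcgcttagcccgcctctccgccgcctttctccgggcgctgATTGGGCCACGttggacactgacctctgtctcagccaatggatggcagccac
Syvn1: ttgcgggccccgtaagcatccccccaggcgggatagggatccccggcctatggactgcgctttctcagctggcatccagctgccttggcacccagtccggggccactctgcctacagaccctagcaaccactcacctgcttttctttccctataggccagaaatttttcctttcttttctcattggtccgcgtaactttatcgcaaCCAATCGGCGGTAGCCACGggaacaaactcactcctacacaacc
The match in Derl3, which reads on the opposite strand, and that in Syvn1 are ER stress elements, and the match in Herpud1 is a second ER stress element.

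Motifs were sought on both strands of windows from 250 bases before to 50 bases after each start, which are 300 bases long. The ER stress element was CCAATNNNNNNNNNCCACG and stood in 39 of 32851 windows (0.119%), among them those of Derl3 (from -156 to -138 relative to the start) and Syvn1 (from -44 to -26). The second ER stress element was ATTGGNCCACG and stood in 12 windows (0.0365%), among them that of Herpud1 (from -52 to -42). The XBP1 core TGACGTGG stood in 222 windows (0.676%) and in 0 of the 10 windows of these genes, of which Derl2 has 2. Both ER stress elements end in CCACG, letters that the XBP1 core holds on its opposite strand, and no 2 matches overlapped in these windows. Edem1, Edem2, Edem3, Sel1l, Derl2 and Xbp1 had no match to any of the 3 in this window, which says only that these letters are not there.

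Among the listed genes with either ER stress element, only Derl3 and Herpud1 passed, and both fell. No direction was shown for the others, and a link between a match and a direction was not tested. Beside Derl3 (-1.03) and Herpud1 (-0.92), which fell, Syvn1 carried the ER stress element with a log2 change of 0.29 and did not pass. Among the measured ER chaperones and folding enzymes 8 held an ER stress element, with changes from -0.22 to 0.51. Of these 8, 0 passed limma's threshold, which is near the 9.40% of all probe sets. Hspa5, the chaperone BiP, is 1 of them, with its element from -65 to -47 and a change of 0.26 (SE 0.15, adjusted p = 0.346). A match is a description of letters and not a bound site.

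**Figure D1:**
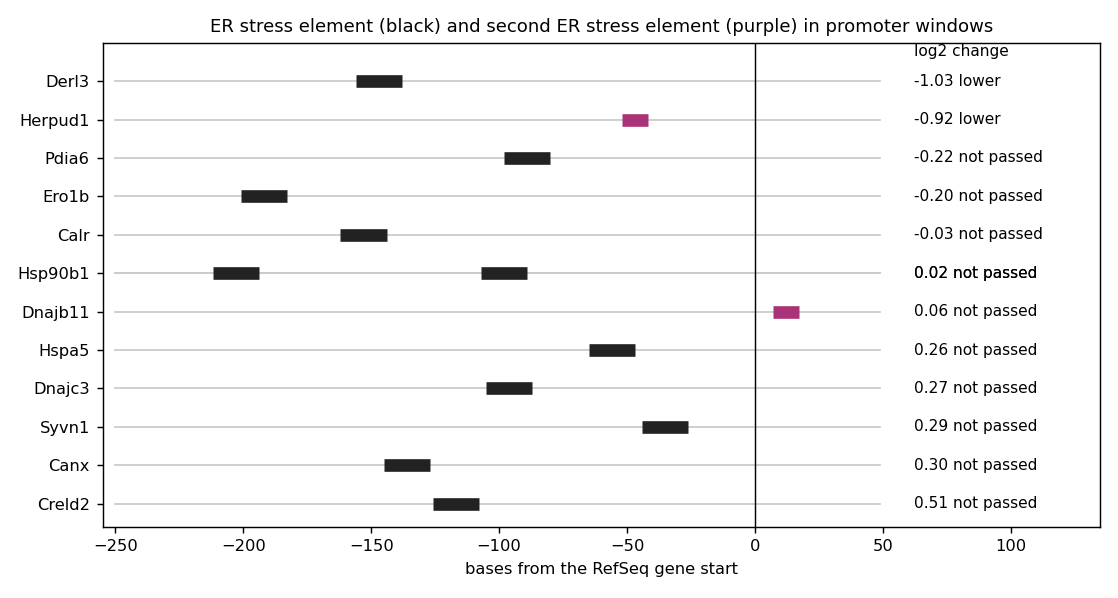
Matches to the ER stress element (black) and the second ER stress element (purple) in windows around the start of 12 genes, as bases from the start (x axis), with the log2 change after withdrawal and the call at the right. Derl3 and Herpud1 are the 2 genes with a match that fell (-1.03 and -0.92), and the others, Syvn1 included, did not pass.

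Among the derlins, Derl1 rose. Its log2 signals (probe set 17317203) were 9.59, 9.47 and 9.41 with NTBC and 10.60, 10.47 and 10.29 after withdrawal, in the order of replicates 1 to 3 as throughout. All 3 withdrawal arrays lay above the continuous ones, with 0.70 log2 units between the groups. The change was 0.96 (SE 0.15, 95% interval 0.63 to 1.3, adjusted p = 0.00301), from 9.49 ± 0.09 to 10.45 ± 0.16 (SD, n = 3 each). Derl1, the most widely expressed derlin, also carries membrane proteins such as mutant CFTR out of the ER.

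Derl3 fell. This derlin is known from secretory tissues and as a target of the UPR. Its log2 signals (probe set 17234423) were 6.82, 6.87 and 6.71 with NTBC and 5.65, 5.73 and 5.93 after withdrawal. The groups did not overlap, and the gap of 0.78 was larger than the spread within either group. The change of the log2 signal was -1.03 (SE 0.15, 95% interval -1.36 to -0.70, adjusted p = 0.00191), a 2.04-fold lower signal.

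Derl2, the third derlin, gave 7.96, 7.76 and 7.93 with NTBC and 8.01, 8.20 and 7.87 after withdrawal. These ranges overlap. The log2 change was 0.14 with a 95% interval from -0.20 to 0.48 (adjusted p = 0.615), and -0.05 after quantile normalization. A separate Derl2 probe set of lower signal went the other way, at 6.72 ± 0.20 with NTBC and 6.34 ± 0.15 after withdrawal (change -0.39, SE 0.16, adjusted p = 0.184), so the probe sets disagree in sign and neither passed.

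The opposite course of Derl1 and Derl3 can be read within each array, where a constant shift of a whole array cancels. The log2 signal of Derl1 minus that of Derl3 was 2.77, 2.60 and 2.70 on the continuous arrays and 4.95, 4.74 and 4.36 on the withdrawal arrays. The spacing widened by 1.99 log2 units (1.94 with quantile normalization). Its groups could not overlap, because all withdrawal arrays lay above for Derl1 and below for Derl3. That separation fixed the exact two-sided permutation test at p = 0.10, the smallest that 3 against 3 arrays allow. The test therefore adds nothing to the results of the single genes. This pair and the pairs below were chosen after their values were seen. Benjamini-Hochberg adjustment over the 3 pairs leaves each p of the exact test at 0.10.

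**Figure D2:**
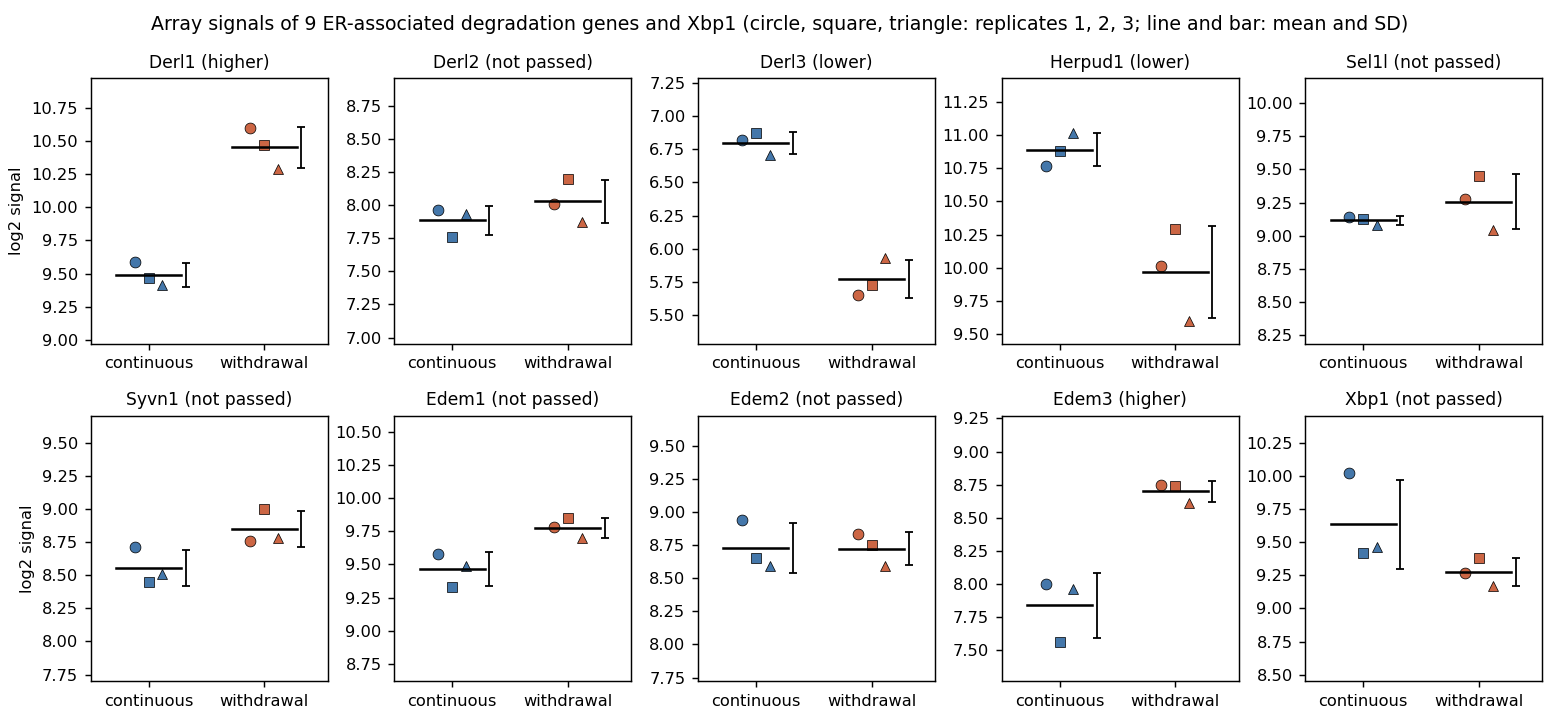
Log2 signal (y axis, 2 log2 units in every panel) of each of the 10 genes on the 3 continuous and 3 withdrawal arrays, with mean and SD. Derl1 and Edem3 lie wholly higher after withdrawal, Derl3 and Herpud1 wholly lower, while Derl2, Sel1l and Edem2 overlap between the groups.

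In the ligase complex, the adaptor and the ligase themselves did not pass the test. Sel1l gave 9.14, 9.13 and 9.08 with NTBC and 9.28, 9.45 and 9.04 after withdrawal. The third withdrawal array lay below all continuous ones, and the change was 0.14 (95% interval -0.20 to 0.48, adjusted p = 0.629). With quantile normalization the change of Sel1l was 0.0039.

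Syvn1 gave log2 signals of 8.71, 8.45 and 8.51 with NTBC and 8.76, 9.0 and 8.78 after withdrawal. The groups were separated by 0.05 only, and the change of 0.29 (95% interval -0.05 to 0.63) had adjusted p = 0.283. For both genes the upper bound of the interval lies under 1, so a 2-fold rise is outside it.

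Herpud1 fell while Syvn1 did not. Its log2 signals (probe set 17504005) were 10.77, 10.88 and 11.02 with NTBC and 10.01, 10.29 and 9.60 after withdrawal. The withdrawal arrays lay below all continuous ones but were more spread, at 9.97 ± 0.35 against 10.89 ± 0.13 (SD, n = 3 each). The change was -0.92 (SE 0.19, 95% interval -1.35 to -0.50, adjusted p = 0.0129), and adjusted p was 0.0517 without withdrawal replicate 1. Within each array, Syvn1 minus Herpud1 was -2.06, -2.43 and -2.51 with NTBC and -1.25, -1.29 and -0.82 after withdrawal. The spacing moved by 1.21 log2 units, and by 1.06 with quantile normalization (exact permutation test, two-sided p = 0.10, the smallest possible). Here too that p was fixed, because all withdrawal arrays lay above for Syvn1 and below for Herpud1.

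Of the 3 EDEM genes, Edem3 rose. Its log2 signals (probe set 17218209) were 8.00, 7.56 and 7.96 with NTBC and 8.75, 8.74 and 8.61 after withdrawal. Continuous replicate 2 was the lowest array, and the groups were separated by 0.61. The change was 0.86 (SE 0.16, 95% interval 0.50 to 1.22, adjusted p = 0.00873), 0.72 without continuous replicate 2 (adjusted p = 0.0297), and adjusted p was 0.0515 without withdrawal replicate 1. EDEM3 is a soluble family member with mannosidase activity.

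Edem1, which takes substrates from the calnexin cycle and is a known XBP1 target, gave 9.58, 9.33 and 9.49 with NTBC and 9.78, 9.85 and 9.70 after withdrawal. The withdrawal arrays were higher by a gap of 0.12, and the change of 0.31 (95% interval -0.01 to 0.63) had adjusted p = 0.230. A dimmer Edem1 probe set gave 6.38 ± 0.27 with NTBC and 6.05 ± 0.16 after withdrawal (change -0.33, SE 0.18, adjusted p = 0.296), so for this gene too the probe sets disagree in sign.

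Edem2, which begins mannose trimming, gave 8.94, 8.65 and 8.59 with NTBC and 8.83, 8.75 and 8.59 after withdrawal. The groups overlapped, with a change of -0.0033 (95% interval -0.35 to 0.35, adjusted p = 0.993). Its sign depended on the scaling, at -0.18 with quantile normalization and 0.10 with median centring. Within each array, Edem3 minus Edem2 was -0.94, -1.09 and -0.63 with NTBC and -0.08, -0.01 and 0.02 after withdrawal. That spacing moved by 0.86 (exact permutation test, two-sided p = 0.10).

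Xbp1 gave log2 signals of 10.02, 9.42 and 9.46 with NTBC and 9.27, 9.38 and 9.17 after withdrawal (probe set 17246967). Every withdrawal array lay below every continuous one, but by 0.04 only, and continuous replicate 1 stood well above the other 5 arrays. The change was -0.36 (SE 0.19, 95% interval -0.77 to 0.05, adjusted p = 0.276), and -0.17 without continuous replicate 1 (adjusted p = 0.508). The level of total Xbp1 mRNA was thus not shown to differ, and its splicing was not measured.

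**Figure D3:**
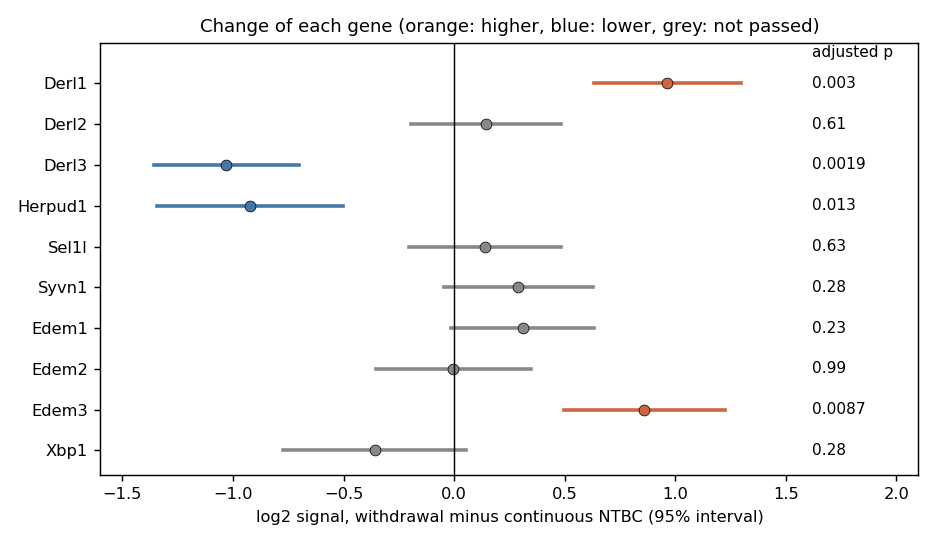
Log2 signal after withdrawal minus that with continuous NTBC (x axis) for each of the 10 genes, with limma's 95% interval as the bar and the adjusted p at the right. The intervals of Derl1 and Edem3 lie above 0, those of Derl3 and Herpud1 below 0, and the other 6 include 0.

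The other genes of ERAD were on a list of 40, of which 38 were measured. In limma 5 of them passed higher (13.2%, beside 6.21% of all probe sets, dim ones included) and 0 lower. At an unadjusted p under 0.05, 12 were higher and 2 lower, beside 12.4% higher and 11.2% lower of all probe sets. Dnajc10, an ER disulfide reductase that prepares substrates for export, rose 2.13-fold (7.87 ± 0.21 to 8.96 ± 0.17, adjusted p = 0.00276). Ubxn4, which anchors VCP at the ER, rose by 0.74 (adjusted p = 0.0104) and Jkamp, which links the complex to proteasomes, by 0.65 (adjusted p = 0.0184). Aup1, which recruits the conjugating enzyme UBE2G2, rose by 0.58 (adjusted p = 0.0406) and Faf1, a VCP cofactor, by 0.61 (adjusted p = 0.0483).

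The extraction ATPase Vcp had a change of 0.37 (adjusted p = 0.164) and the glycan-binding lectin Os9, which hands substrates to SEL1L, one of -0.43 (adjusted p = 0.116). Neither passed. The median change of the 38 was 0.26, beside 0.14 for the 10 genes and -0.08 for all probe sets. After quantile normalization these medians were 0.11, -0.02 and -0.02. With an array left out, the count of 5 fell to 2 (continuous replicate 2 or withdrawal replicate 1), to 3 (continuous or withdrawal replicate 3) and to 1 (withdrawal replicate 2). Dnajc10 was the gene that passed with any 1 array left out.

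Upstream, the UPR sensors and factors included 4 of 16 measured genes higher (25%, beside 6.21%) and 0 lower. At an unadjusted p under 0.05, 6 were higher and 1 lower, beside 12.4% and 11.2% of all probe sets (Xbp1 is counted in this list too). Ddit3, the factor CHOP of the PERK branch, rose 2.49-fold (6.58 ± 0.36 to 7.89 ± 0.15, adjusted p = 0.00225). Creb3l2, a membrane-bound factor processed like ATF6, rose 2.54-fold (7.02 ± 0.32 to 8.37 ± 0.05, adjusted p = 0.00123). Both passed with any 1 array left out.

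Ern1, the gene of the sensor that splices Xbp1, gave 8.93, 8.62 and 8.74 with NTBC and 9.38, 9.60 and 9.39 after withdrawal. The groups did not overlap, and the change was 0.69 (SE 0.15, adjusted p = 0.0183). Eif2ak3, the gene of the sensor PERK, changed by 0.56 (SE 0.14, adjusted p = 0.0358). The Ern1 call was lost without any 1 of 4 arrays (highest adjusted p = 0.0879) and the Eif2ak3 call without any 1 of the 6 (highest adjusted p = 0.142). Leaving out any of continuous replicates 2 and 3 and withdrawal replicates 1 and 2 brought the count of 4 to 2.

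Atf6 (0.06, adjusted p = 0.852), Atf4 (-0.11, adjusted p = 0.752) and the liver-enriched factor Creb3l3 (-0.46, adjusted p = 0.0802) did not pass. The list median was 0.17, and 0.01 after quantile normalization, under which 3 genes were higher and 1 lower. These are mRNA levels of the sensors, whose activity is set on the protein.

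Of 21 measured ER chaperones and folding enzymes 2 rose (9.52%) and 1 fell (4.76%), beside 6.21% and 3.20% of all probe sets. Without adjustment (limma p under 0.05), 5 of the 21 were higher and 2 lower, beside 12.4% and 11.2% of all probe sets. Dnajb9, the J-domain cochaperone ERdj4 and a known XBP1 target, gave 8.65, 7.81 and 9.13 with NTBC and 10.11, 10.22 and 10.40 after withdrawal. Its groups were separated although the continuous arrays were widely spread, and it rose 3.28-fold (SE 0.28, adjusted p = 0.00408). Ero1a, the oxidase that recharges disulfide isomerases, rose 2.54-fold (7.98 ± 0.09 to 9.32 ± 0.10, adjusted p = 3.18e-04). Pdia5, a disulfide isomerase, fell from 8.77 ± 0.04 to 7.81 ± 0.33 (adjusted p = 0.00800). The median of this list was 0.19 and 18 of the 21 did not pass.

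Of 35 measured ER entry and early secretion genes 5 passed higher (14.3%, beside 6.21%) and 0 lower. At an unadjusted p under 0.05, 9 were higher and 1 lower, beside 12.4% and 11.2% of all probe sets. The 5 included Srprb, the anchor of the signal recognition particle receptor (2.27-fold), and Serp1, a translocon-associated protein (log2 change 0.52). The others were the oligosaccharyltransferase subunits Stt3b (2.41-fold), Dad1 (2.02-fold) and Stt3a (log2 change 0.58). Adjusted p ran from 9.21e-04 for Srprb to 0.0465 for Serp1. The list median was 0.20, and 0.06 after quantile normalization, under which 4 were higher and 1 lower. Leaving out continuous replicate 2 or 3, or withdrawal replicate 1 or 2, brought the count to 3, with the calls of Serp1 and Stt3a lost. The Serp1 call was lost without any 1 of the 6 arrays (highest adjusted p = 0.157).

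Transcripts that IRE1 is known to cut besides Xbp1 showed 0 of 7 past limma's threshold, near the 9.40% of all probe sets. Changes of the 7 ran from -0.39 to 0.38, with a median of -0.12. At an unadjusted p under 0.05, 1 was higher (Pdgfrb, 0.38) and 0 lower, near the 12.4% and 11.2% of all probe sets. With quantile normalization 1 passed lower, Hgsnat, a lysosomal enzyme named after its value was seen.

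**Figure D4:**
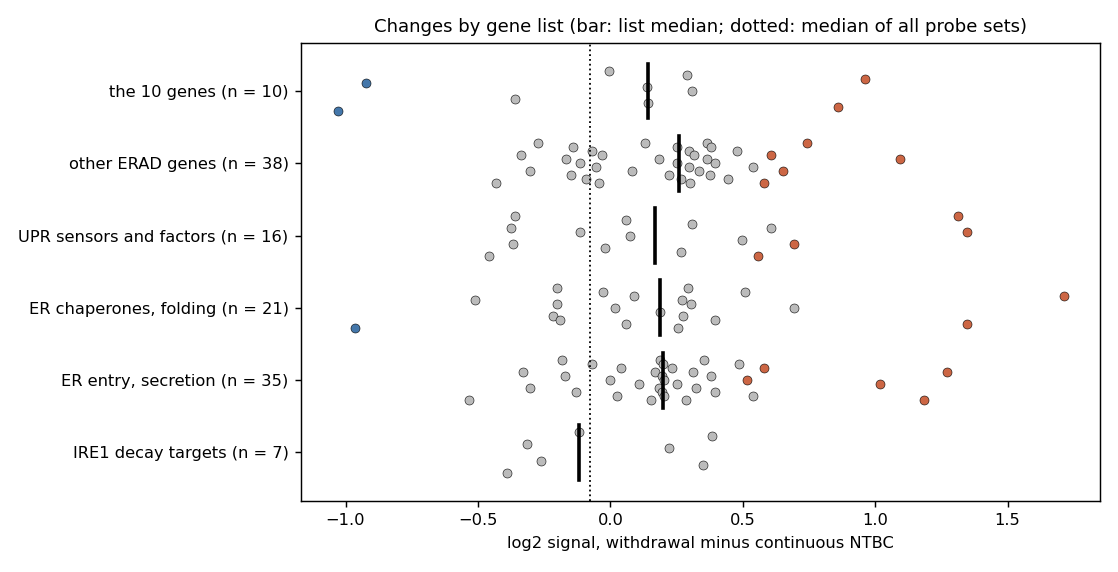
Log2 change after withdrawal (x axis) of each measured gene by list, orange for higher, blue for lower and grey for not passed, with the list median as a bar and the median of all probe sets (-0.08) dotted. The 10 genes hold 2 calls in each direction, the other ERAD genes 5 higher and 0 lower, and Xbp1 is shown both among the 10 genes and among the UPR factors.

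Derl3 and Xbp1 are abundant in pancreatic acinar cells and in plasma cells, so markers of both were read on the same arrays. Acinar markers stood out on continuous replicate 2, where the summed linear signal of the 14 measured markers was 1813, beside 622 and 691 on the other continuous arrays and 605 to 765 on the withdrawal arrays. On that array 12 of the 14 were at their highest, and Cpa1, a pancreatic carboxypeptidase, was at 7.26 beside 5.15 and 5.19 on the other continuous arrays. The Derl3 signal there was 6.87, the highest of the 6 arrays, beside 6.82 and 6.71 on the other continuous arrays. Without continuous replicate 2 the Derl3 change in limma was -0.995 (adjusted p = 0.00997). Herpud1 changed by -0.93 without that array (adjusted p = 0.0442). Of the 14 acinar markers 12 changed below 0, as did 20872 of all 34472 probe sets. Their median change was -0.47, beside -0.08 for all probe sets. At an unadjusted p under 0.05, 1 was higher and 1 lower (Try5, -0.52), beside 12.4% and 11.2% of all probe sets. In limma 1 passed, Spink1, which was higher after withdrawal (beside 6.21% of all probe sets). The part of acinar RNA in the group differences was not tested.

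Of 12 measured plasma and B cell markers 0 passed in limma, beside 9.40% of all probe sets. At an unadjusted p under 0.05, 0 were higher and 2 lower, beside 12.4% and 11.2% of all probe sets. The markers had a median change of -0.21. Their summed signal ran from 830 to 1147 with NTBC and from 791 to 970 after withdrawal. Jchain, the joining chain of secreted antibodies, was near the lower quartile of the arrays (4.18 ± 0.14 and 3.81 ± 0.24). No marker is listed at 0 on these arrays, whose lowest signal is 3.58 on the linear scale. The part of plasma cell RNA in the lower Derl3 signal was not tested.

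Endothelial and hepatocyte markers differed between the groups in part. Of 8 endothelial markers 2 passed higher, Lyve1 and Clec4g (25%, beside 6.21% of all probe sets). Without adjustment (limma p under 0.05), 5 of the 8 were higher and 0 lower, beside 12.4% and 11.2% of all probe sets. The summed signal of the 8 was 1432 to 1832 with NTBC and 2217 to 2403 after withdrawal. Of 11 measured hepatocyte markers 2 passed lower, Cps1 and Cyp2e1 (18.2%, beside 3.20% of all probe sets). Unadjusted, 0 of the 11 were higher and 3 lower, beside the same 12.4% and 11.2%. Summed signals of the 11 were 85253 to 89829 with NTBC and 71690 to 75649 after withdrawal, while Alb changed by -0.05. Of 8 macrophage markers, 8 stellate cell markers and 5 measured bile duct markers 0 passed, beside 9.40% of all probe sets. At an unadjusted p under 0.05, 1, 2 and 1 of them were higher and 0 lower, beside 12.4% and 11.2% of all probe sets. Summed signals were 821 to 956 and 820 to 1191 for macrophages, 743 to 868 and 806 to 952 for stellate cells, and 248 to 286 and 262 to 302 for bile ducts, with NTBC and after withdrawal. The part of these shifts in the changes of Derl1, Edem3, Derl3 and Herpud1 was not tested.

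**Figure D5:**
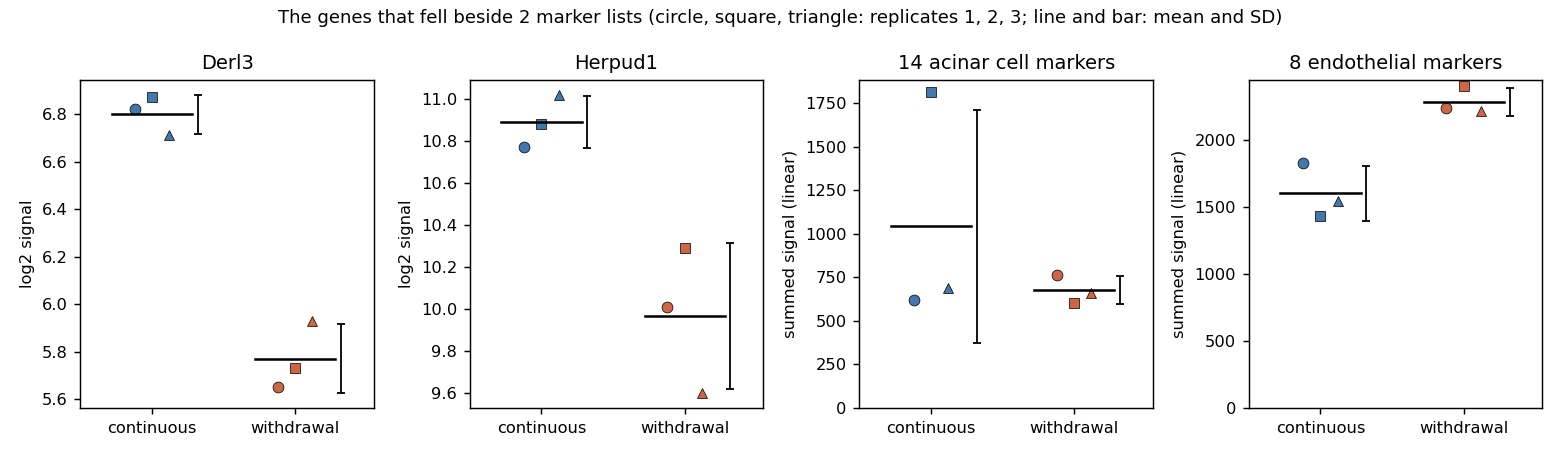
Log2 signals of Derl3 and Herpud1 and summed linear signals of 14 acinar and 8 endothelial markers (y axes) on each array, with mean and SD. Continuous replicate 2 (square) stands apart for the acinar markers at 1813. Its Derl3 signal of 6.87 is the highest of the 6 arrays, beside 6.82 and 6.71 on the other continuous arrays.

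Fah carries the mutation in both groups, and its log2 signal was 7.82 ± 0.42 with NTBC and 7.66 ± 0.23 after withdrawal. Array medians lay between 5.21 and 5.44 on the log2 scale and lower quartiles between 4.03 and 4.26, so each of the 10 genes stood above the lower quartile on every array. Signals of different probe sets were not compared as levels, because their probes differ.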

How the data were processed

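The table the authors deposited holds a normalized linear intensity for each probe set on each array. Transcriptome Analysis Console is named in the submitters' processing notes. Which release was used, and how signals were background-corrected and normalized, is not given in the sources used here. Log2 of each intensity was taken with no further normalization. Symbols came from the platform annotation (23521 probe sets with 1 symbol, 1814 with several, which name no gene, and 9137 with none), and 23328 matched a RefSeq table (GRCm38.p6) by identifier. limma 3.58.1 in R 4.3.3 was fitted to all 34472 probe sets without covariates (two-sided, threshold 0.05 after Benjamini-Hochberg adjustment, intervals of 95%). The fit was tested on simulated data. Motifs were matched by letters in RefSeq promoter windows.

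The 10 genes and the other lists were chosen with earlier results of these data known. All 10 were named. From other lists the genes that passed were named where 6 or fewer did, with defining genes such as Atf4, Hspa5 and Vcp. From the cell type marker lists the rule named only Cpa1, Jchain and Alb. Try5, Hgsnat, Spink1, Cps1, Cyp2e1, Lyve1, Clec4g and Pdgfrb lie outside that rule and were named after their values were seen. Alternatives were array weights, the prior, scaling, filters, a replicate block, probe set averaging, a 2-fold threshold and each array left out. The labels give replicate numbers and name no pairing. Arrays of 1 number had correlations of deviations of 0.16, -0.13 and 0.22, which cannot decide on pairing with 3 arrays per group.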

Additional observations from a re-analysis of the deposited data

How the results depend on the processing

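Over 16 alternatives per gene, changes ran from 0.88 to 1.06 for Derl1 and from -1.11 to -0.93 for Derl3. They ran from -1.09 to -0.74 for Herpud1 and from 0.68 to 0.96 for Edem3. The direction held in each, but in most this was fixed. The prior, filters, replicate block, probe set averaging and 2-fold threshold left these changes as they were. Array weights or a left-out array cannot reverse a sign where the groups do not overlap. Only median centring and quantile normalization could have done so. The calls lost were those of Herpud1 and Edem3 without withdrawal replicate 1, and those of Derl1, Herpud1 and Edem3 when at least a 2-fold change was asked for, which left 0 of the 10 genes higher and 1 lower. With each array left out in turn, 1 to 2 of the 10 were higher and 1 to 2 lower. Derl2 and Edem1, whose changes as reported were 0.14 and 0.31, came to -0.12 and -0.01 with the mean of their probe sets. Over all probe sets the count of 3241 became 5588 with array weights, 1178 with the 2-fold threshold and 1454 to 4210 with arrays left out (1454 without withdrawal replicate 1, 1795 without withdrawal replicate 2, 2078 without continuous replicate 2). The median over all probe sets was -0.08 as reported and 0.02 with median centring, and the higher share of calls with quantile normalization was 58.3%.

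The higher count of other ERAD genes, 5 as reported, ran from 1 to 6 with arrays left out. Of the 78 measured UPR list genes other than Xbp1, 11 were higher and 1 lower as reported, and 7 to 11 were higher with arrays left out. Array weights and the trend and robust prior each gave 17 higher. The lower count was 2 with array weights, 2 with probe sets of 1 symbol, 2 without dim probe sets, 4 with the trend and robust prior and 5 with quantile normalization. The cause of these shifts was not tested. The replicate block, where samples share only a number, gave 3298 probe sets and 3 other ERAD genes higher, and changed no call among the 10 genes. In deviations from the group means, 3 of 6 arrays correlated best with their own number. No background level is given, so a fold of a dim probe set may be compressed, and 3 arrays per group limit the precision.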
